A study of Homo sapiens with 6 samples.

Results

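CYP1B1 and 7 other genes were followed in VCaP prostate cancer cells after knockdown of the transcription factor SOX9 with either of 2 independent siRNAs. The other 7 genes were CYP1A1, AHR, ARNT, AHRR, TIPARP and NQO1, of the aryl hydrocarbon receptor system, and the retinoid enzyme gene ALDH1A1. Their probe sets were those whose gene symbol in the array's probe annotation was exactly one of these 8 symbols, which gave 19 of the 54675 probe sets on the array, or 8 of the 19775 genes with a probe set of their symbol alone. ARNT had 7 probe sets, CYP1B1 had 4, NQO1 had 3 and each other gene had 1. CYP1B1 was selected on its signals in these same arrays, which differed between the 2 siRNAs, so its values with each siRNA are given as a description and without a test.

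VCaP is an established line derived from a prostate cancer metastasis, and its cells carry the TMPRSS2/ERG gene fusion. Cells were grown in DMEM with 10% fetal bovine serum and transfected with SOX9 siRNA A, SOX9 siRNA B or a non-targeting control siRNA, and total RNA was taken 72 h later and hybridised to Affymetrix Human Genome U133 Plus 2.0 arrays. Each of the 3 groups held 2 arrays, numbered replicate 1 and replicate 2, which the design text describes as biological duplicates. All 3 groups share the fusion, the single cell line and the transfection, and no untransfected cells were analysed here. Nothing further says how the duplicates were grown, so the p-values measure the spread between these arrays.

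The aryl hydrocarbon receptor, encoded by AHR, is a ligand-activated transcription factor that waits in the cytoplasm in a chaperone complex. After binding a ligand such as a planar aromatic pollutant or a tryptophan metabolite it enters the nucleus, pairs with ARNT and binds DNA elements with the core GCGTG. Its classical targets include the cytochrome P450 enzymes CYP1A1 and CYP1B1, which oxidise polycyclic hydrocarbons and oestradiol, and AHRR and TIPARP, which feed back to repress the receptor. NQO1, a quinone reductase, is a target of both this receptor and the oxidative stress factor NRF2, and ALDH1A1, a retinaldehyde dehydrogenase, makes retinoic acid.

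Promoter windows from RefSeq on build GRCh38.p14 are printed for 3 of these genes. NQO1 and ALDH1A1 were taken because they differed most between the 2 siRNAs after CYP1B1. CYP1A1 was taken as a classical target that did not share their pattern. Each window runs 5′ to 3′ on the gene's own strand, from 250 bases before the transcription start through the first 50 bases of the transcript, and capitals mark GCGTG or its reverse complement.
NQO1, minus strand, chr16:69726511-69726810: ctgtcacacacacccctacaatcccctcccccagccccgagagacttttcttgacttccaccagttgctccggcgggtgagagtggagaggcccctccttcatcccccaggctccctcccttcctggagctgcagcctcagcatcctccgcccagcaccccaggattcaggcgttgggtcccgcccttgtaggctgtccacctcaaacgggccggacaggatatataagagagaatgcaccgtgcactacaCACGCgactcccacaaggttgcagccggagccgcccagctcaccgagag
CYP1A1, minus strand, chr15:74725479-74725778: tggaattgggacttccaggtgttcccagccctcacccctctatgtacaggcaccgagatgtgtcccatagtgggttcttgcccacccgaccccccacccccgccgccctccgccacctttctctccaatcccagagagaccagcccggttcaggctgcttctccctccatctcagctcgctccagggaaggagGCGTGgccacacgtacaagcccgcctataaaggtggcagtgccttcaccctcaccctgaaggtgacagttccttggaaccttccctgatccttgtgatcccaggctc
ALDH1A1, minus strand, chr9:72953004-72953303: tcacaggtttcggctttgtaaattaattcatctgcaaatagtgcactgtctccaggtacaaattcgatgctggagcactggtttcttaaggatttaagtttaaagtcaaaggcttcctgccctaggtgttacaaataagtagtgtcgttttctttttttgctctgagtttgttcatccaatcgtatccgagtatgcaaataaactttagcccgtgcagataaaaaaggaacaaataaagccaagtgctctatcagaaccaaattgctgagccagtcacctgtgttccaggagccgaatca

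In NQO1 the element began at base 2 of the transcript and lay on the opposite strand. There it was also part of the longer form TNGCGTG. In CYP1A1 the element began 57 bases before the start, which the table codes as -57, and in the ALDH1A1 window neither strand held it. The promoter table had 10 windows for 7 of the 8 genes and none for CYP1B1, whose promoter was therefore not examined. Of these windows, 6 in 5 genes, namely NQO1, CYP1A1, AHR, AHRR and TIPARP, held GCGTG on at least one strand. Over all 35116 windows of the table, 36.5% held GCGTG and 5.51% held TNGCGTG on either strand, and 2 of the 10 windows, one each in NQO1 and AHRR, held the longer form, which contains the shorter. The NRF2 element core TGACNNNGC was in the window of ARNT and in 13.3% of all windows. These are matches of letters in a short window and not binding measurements.

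The values were MAS5 signals on a linear scale, and fold changes are differences of log2(signal + 16), which understates the change of dim probe sets. Both probe sets of SOX9 were lower in all 4 SOX9 siRNA arrays than in both control arrays, with log2 differences of -1.02 and -1.36 for both siRNAs against control, and neither passed limma's test with Benjamini-Hochberg adjustment over all 27307 tested probe sets (adjusted p = 0.571 and 0.328). In the limma fit with the replicate number as a block both passed (adjusted p = 0.00141 and 3.25e-06). That fit took its spread from the intensity trend alone, with 2 residual degrees of freedom, so its p-values can be too small. The 2%-trimmed mean signal of an array was 165 and 160.3 under siRNA A, 144 and 190.05 under siRNA B and 157 and 176 under control siRNA, so that the second siRNA B array was the brightest and the first the dimmest. All 8 of the VCaP identity markers that had a probe set of their own reached the filter on dim probe sets (a mean at or above the median of all probe sets, a signal of 21.96), as did 2 of 6 fibroblast and stromal, 1 of 5 leukocyte and 1 of 4 endothelial markers. The 2 fibroblast and stromal markers were higher with siRNA B than with siRNA A. COL1A1 gave 82.5 and 30.9 under siRNA A, 223 and 196 under siRNA B and 135 and 115 under control siRNA, and LUM gave 262 and 662, 702 and 2019, and 155 and 385 in the same groups. The part of these signals in the results that follow was not tested. In RNA from whole cultures, fewer cells that express a gene and less of its RNA per cell cannot be told apart.

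CYP1B1 was high in both siRNA B arrays and near the control level with siRNA A. Its brightest probe set, 202436_s_at, gave 195 and 145 under siRNA A, 461 and 1162 under siRNA B and 145 and 179.6 under control siRNA. Probe set 202437_s_at gave 174 and 142 under siRNA A, 291 and 1041 under siRNA B and 98.8 and 131 under control siRNA. Both siRNA B arrays stood above all 4 other arrays on each of these probe sets, and the siRNA A arrays overlapped the control arrays on 202436_s_at but lay above them on 202437_s_at. Probe set 202435_s_at gave 142 and 118 under siRNA A, 333 and 889 under siRNA B and 92.9 and 138 under control siRNA, with siRNA B again above all others and siRNA A overlapping control. The fourth, 202434_s_at, stayed between 1.1 and 3.1 in every array, below the filter.

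**Figure D1:**
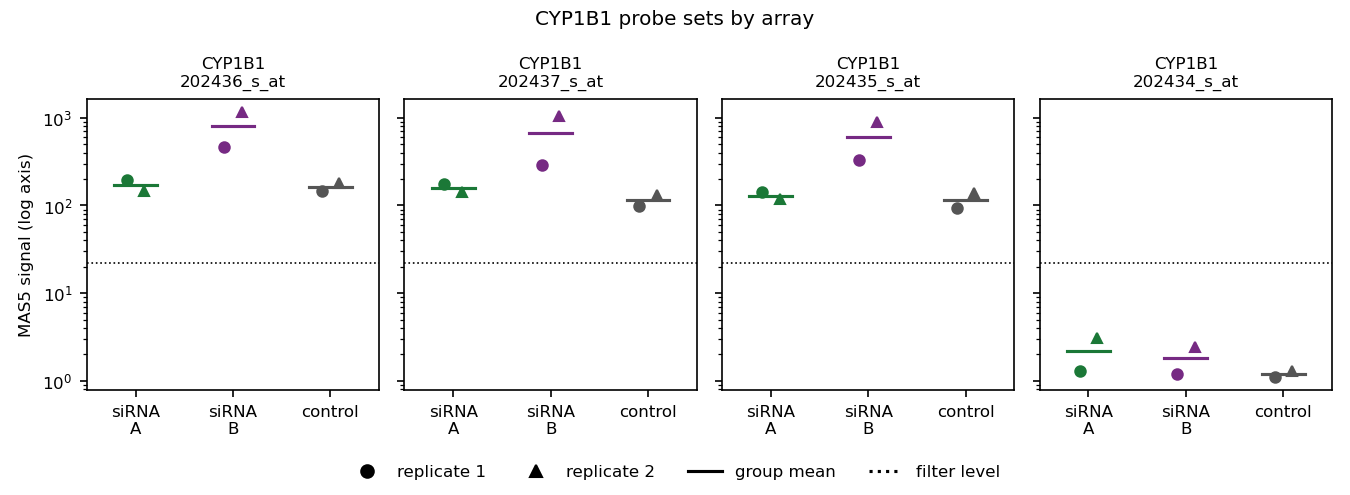
MAS5 signal of the 4 CYP1B1 probe sets in each of the 6 arrays, on a log axis, with the filter as a dotted line. Points are single arrays and short horizontal lines are group means of 2 arrays. Both siRNA B arrays lie above all other arrays on the 3 probe sets above the filter, with replicate 2 of siRNA B the highest, and 202434_s_at lies below the filter throughout.

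The mean signal of 202436_s_at was 811 ± 495 under siRNA B (SD, n = 2) and 162 ± 24.7 under control siRNA (SD, n = 2), 5.01 times the control mean. The mean with siRNA A was 1.05 times the control mean. The ratio of siRNA B to control means was 5.80 on 202437_s_at and 5.29 on 202435_s_at. On the log2 scale, siRNA A minus siRNA B came to -2.02, -1.72 and -1.95 on 202436_s_at, 202437_s_at and 202435_s_at, and siRNA B minus control came to 2.08, 2.13 and 2.12.

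The size of the CYP1B1 difference depended on the second siRNA B array, which was 2.52, 3.58 and 2.67 times as bright as the first on the 3 probe sets. The first siRNA B array alone was still 2.57, 2.22 and 2.41 times the higher control array. Without the second siRNA B array, siRNA A minus siRNA B was -1.37, -0.83 and -1.26 (log2), and without the second array of either siRNA it was -1.18, -0.69 and -1.15. When all arrays were scaled to a common trimmed mean, 202436_s_at gave 195 and 149.8 under siRNA A, 531 and 1011 under siRNA B and 152 and 169 under control siRNA. The ratio of the second to the first siRNA B array was then 1.90, and the first was 3.14 times the higher control array.

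The difference for both siRNAs against control was 1.07, 1.27 and 1.14 (log2) for CYP1B1 on 202436_s_at, 202437_s_at and 202435_s_at. It is the mean of the siRNA A and siRNA B differences, so it holds the siRNA B values on which the gene was selected and is given as a description. All 4 siRNA arrays were above both control arrays on 202437_s_at, and the siRNA and control arrays overlapped on the other 2 probe sets.

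SOX9 was lower in both siRNA B arrays than in both siRNA A arrays on both of its probe sets. On 202935_s_at and 202936_s_at its mean was 68.6% and 51.2% of the control mean with siRNA A and 36.3% and 30.5% with siRNA B. There siRNA A minus siRNA B was 0.91 and 0.77 (log2), which did not pass limma's test (adjusted p = 0.492 and 0.615). With the replicate block the first passed (0.0352 in limma) and the second did not (0.110). Of the siRNA arrays, 2 were close to each other in SOX9 signal. SOX9 probe set 202935_s_at gave 1108 and 673 under siRNA A, 609 and 334 under siRNA B and 1469 and 1126 under control siRNA. The first siRNA B array had 0.906 times the SOX9 signal of the second siRNA A array on 202935_s_at and 0.973 times on 202936_s_at. Between these same arrays the CYP1B1 signal was 3.18, 2.06 and 2.83 times as high with siRNA B on the 3 probe sets. ALDH1A1 was 2.97 times, CYP1A1 2.20 times and NQO1 1.63 and 1.46 times (201468_s_at and 210519_s_at) as high. AHR was 0.877 times, AHRR 0.650 times and TIPARP 0.901 times as high. ARNT was 0.922, 0.664 and 1.40 times as high (218221_at, 231016_s_at and 230619_at). For CYP1A1, siRNA A minus siRNA B over all arrays was only 0.10 (log2). The pair was picked for its closeness in SOX9 signal, and CYP1B1 was selected on these siRNA A and siRNA B values, so its ratios are a description. The part of the SOX9 level in the CYP1B1 difference between the siRNAs, and of the replicate number in these ratios, was not tested. With 1 array on each side, this pair has no replicate check and the arrays carry different replicate numbers.

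CYP1A1, the other inducible P450 of this receptor, passed no test with all arrays fitted and was low in the second array of each siRNA. Its probe set 205749_at gave 74.2 and 26.5 under siRNA A, 58.4 and 29.0 under siRNA B and 72.0 and 65.7 under control siRNA. The siRNA A arrays spanned the control arrays and both siRNA B arrays lay below them. The log2 difference was -0.45 for siRNA A against control, -0.55 for siRNA B against control and 0.10 for siRNA A against siRNA B, and none passed limma's test (adjusted p = 1.00, 0.645 and 0.989). For both siRNAs against control it was -0.50 (adjusted p = 0.799 in limma). Without the second array of either siRNA that difference was -0.05, and without the first array of either it was -0.96, with an adjusted p of 0.00461 in a limma fit whose 1 residual degree of freedom came from the control arrays.

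AHR, the receptor itself, was near the filter. Probe set 202820_at gave 21.5 and 21.9 under siRNA A, 19.2 and 37.4 under siRNA B and 28.3 and 35.7 under control siRNA. Both siRNA A arrays were below both control arrays, with a log2 difference of -0.34, while the siRNA B arrays spanned the control arrays. None of the AHR comparisons passed the test, with limma adjusted p of 0.911 for both siRNAs against control and 0.968 for siRNA A against siRNA B.

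ARNT, the DNA-binding partner of the receptor, was measured by 3 probe sets above the filter that passed no test in any comparison. The brightest, 218221_at, gave 182 and 149 under siRNA A, 137 and 179.6 under siRNA B and 172 and 176 under control siRNA, so that the siRNA A and siRNA B arrays overlapped each other. Probe set 231016_s_at gave 95.8 and 90.2 under siRNA A, 59.9 and 72.0 under siRNA B and 71.9 and 77.0 under control siRNA. Both siRNA A arrays were above all others there, with siRNA A minus siRNA B at 0.41 on the log2 scale (adjusted p = 0.824 in limma). The third, 230619_at, gave 75.2 and 56.7 under siRNA A, 79.6 and 54.2 under siRNA B and 75.4 and 62.0 under control siRNA. The first array was the brighter one in all 3 groups on this probe set. The siRNA A minus siRNA B difference was 0.06 on 218221_at and -0.01 on 230619_at, so the 3 probe sets did not share a direction. The 4 dim ARNT probe sets ran from 0.8 to 27.7 over the arrays and were not tested.

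The feedback repressors of the receptor passed no test either. AHRR, which competes with the receptor for ARNT, gave 31.1 and 31.4 under siRNA A, 20.4 and 26.9 under siRNA B and 22.8 and 34.3 under control siRNA on probe set 229354_at. TIPARP, a mono-ADP-ribosyltransferase that modifies the receptor, gave 95.7 and 106 under siRNA A, 95.3 and 153 under siRNA B and 103 and 115 under control siRNA on probe set 212665_at. Both siRNA A arrays of AHRR lay above both siRNA B arrays, and for TIPARP the siRNA B arrays spanned all others. The siRNA A minus siRNA B difference was 0.26 for AHRR and -0.24 for TIPARP (log2), with limma adjusted p of 0.952 and 0.958.

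NQO1 was lower with siRNA A than with siRNA B on all 3 of its probe sets. Probe set 201468_s_at gave 86.6 and 72.2 under siRNA A, 118 and 231 under siRNA B and 92.8 in each control array. Probe set 210519_s_at gave 47.1 and 68.5 under siRNA A, 99.9 and 153 under siRNA B and 79.6 and 55.3 under control siRNA. The siRNA B arrays were above both control arrays on both probe sets, and the siRNA A arrays were below both control arrays on 201468_s_at alone. The dim probe set 201467_s_at, which was not tested, gave 4.0 and 13.1 under siRNA A, 33.9 and 30.5 under siRNA B and 9.8 and 10.9 under control siRNA.

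The NQO1 difference between the siRNAs did not pass the test that leaves the replicate number out. On 201468_s_at siRNA A minus siRNA B was -0.93 (log2, SE 0.31, 95% interval -1.59 to -0.28, 2 arrays each), with an adjusted p of 0.390 in limma. On 210519_s_at it was -0.94 (SE 0.30), with an adjusted p of 0.382 in limma. With the replicate number as a block both probe sets passed, with limma adjusted p of 0.0240 and 0.0242, and with each array also centred on its median neither did (0.0512 and 0.0593). The siRNA B minus control differences were 0.74 and 0.76, with limma adjusted p of 0.421 and 0.388. Without the second siRNA B array, siRNA A minus siRNA B on 201468_s_at was -0.49, and without the first it was -1.38 with an adjusted p of 0.0348 in limma.

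ALDH1A1, at 224 to 1143 signal units, had the widest log2 difference between the siRNAs among the 10 tested probe sets of the 7 genes other than CYP1B1. Probe set 212224_at gave 496 and 224 under siRNA A, 665 and 1143 under siRNA B and 787 and 649 under control siRNA. Both siRNA A arrays were below all other arrays, whereas the siRNA B arrays overlapped the control arrays. The siRNA A mean was 50.1% of the control mean and the siRNA B mean 126% of it.

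For ALDH1A1, siRNA A minus siRNA B was -1.34 on the log2 scale (SE 0.37, 95% interval -2.12 to -0.56, 2 arrays each), with an adjusted p of 0.276 in limma. It was -1.06 for siRNA A against control (SE 0.37, adjusted p = 1.00 in limma) and 0.28 for siRNA B against control (adjusted p = 0.848 in limma). With the replicate number as a block the first of these passed with an adjusted p of 0.00032 in limma, and the second with 0.0153. With each array also centred on its median, the first still passed (0.0126 in limma) and the second did not (0.128). The second siRNA A array carried much of both. Without it the ALDH1A1 differences were -0.80 against siRNA B and -0.51 against control, and without the second array of either siRNA the difference between the siRNAs was -0.41.

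**Figure D2:**
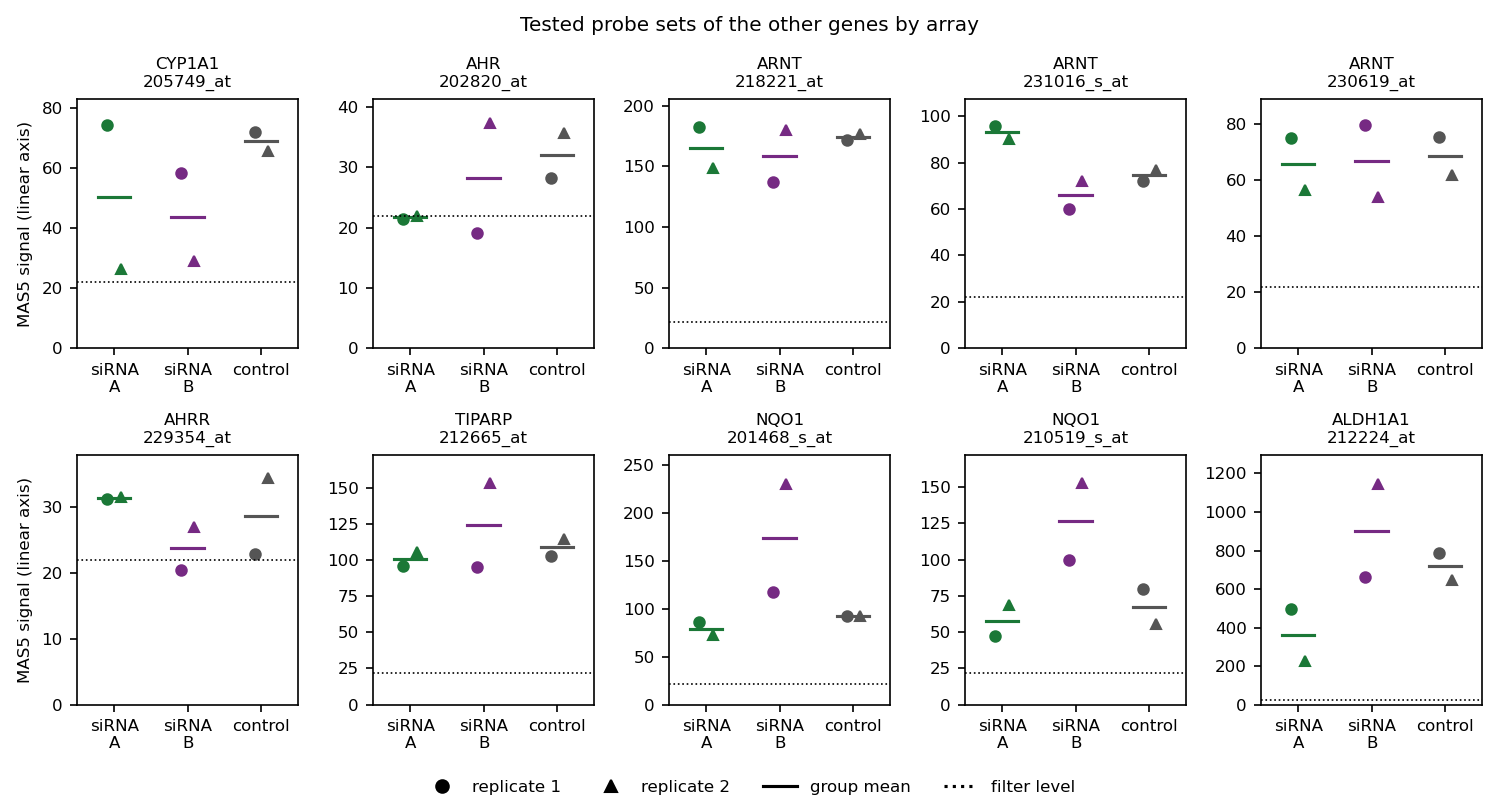
Signal of the 10 tested probe sets of the 7 genes other than CYP1B1 in each array, on linear axes that start at 0, with the filter as a dotted line. Points are single arrays and short horizontal lines are group means of 2 arrays. NQO1 and ALDH1A1 have both siRNA A arrays below both siRNA B arrays, and CYP1A1 is low in the second array of each siRNA.

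Counted together, 10 probe sets of the 7 genes other than CYP1B1 reached the filter and were tested, and none was called at an adjusted p below 0.05 in any of the 4 comparisons in limma. The share of all tested probe sets called was 0.00366% for both siRNAs against control, 0.00732% for siRNA A against control, 0.0623% for siRNA B against control and 0.0476% for siRNA A against siRNA B, so 0 of 10 is near the background. At an unadjusted p below 0.05 the count was 0 for both siRNAs against control, where 6.90% of all tested probe sets passed. It was 1 for siRNA A against control (ALDH1A1, background 3.86%) and 2 for siRNA B against control (both NQO1 probe sets, background 10.3%). It was 3 for siRNA A against siRNA B (both NQO1 probe sets and ALDH1A1, background 7.48%). With the replicate block limma called the same 3 in siRNA A against siRNA B, where 2.60% of all tested probe sets were called, and ALDH1A1 in siRNA A against control, where 1.30% were. The block called none of the 10 for both siRNAs against control or for siRNA B against control, where 3.01% and 5.60% were called. NQO1 and ALDH1A1 make these counts from 2 genes, and the siRNA comparisons share arrays.

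Arrays of siRNA A lay wholly above those of siRNA B on 2 of the 10 probe sets and wholly below on 3, against 16% and 14.8% of all tested probe sets. Against control, siRNA A was wholly above on 1 and below on 3 (all tested probe sets, 14.4% and 22.5%). For siRNA B against control the counts were 2 and 1 (13.5% and 24.8%). No probe set had all 4 siRNA arrays on one side of both control arrays, which 15.6% of all tested probe sets had. NQO1 probe set 201468_s_at was the only one of the 10 under siRNA A below control and siRNA B above control in every array, a pattern of 1.63% of all tested probe sets. The median log2 difference over the 10 probe sets was -0.11 for siRNA A against siRNA B, -0.14 for siRNA A against control, -0.09 for siRNA B against control and -0.04 for both against control. The medians over all tested probe sets were -0.03, -0.04, -0.01 and -0.03 in the same order.

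**Figure D3:**
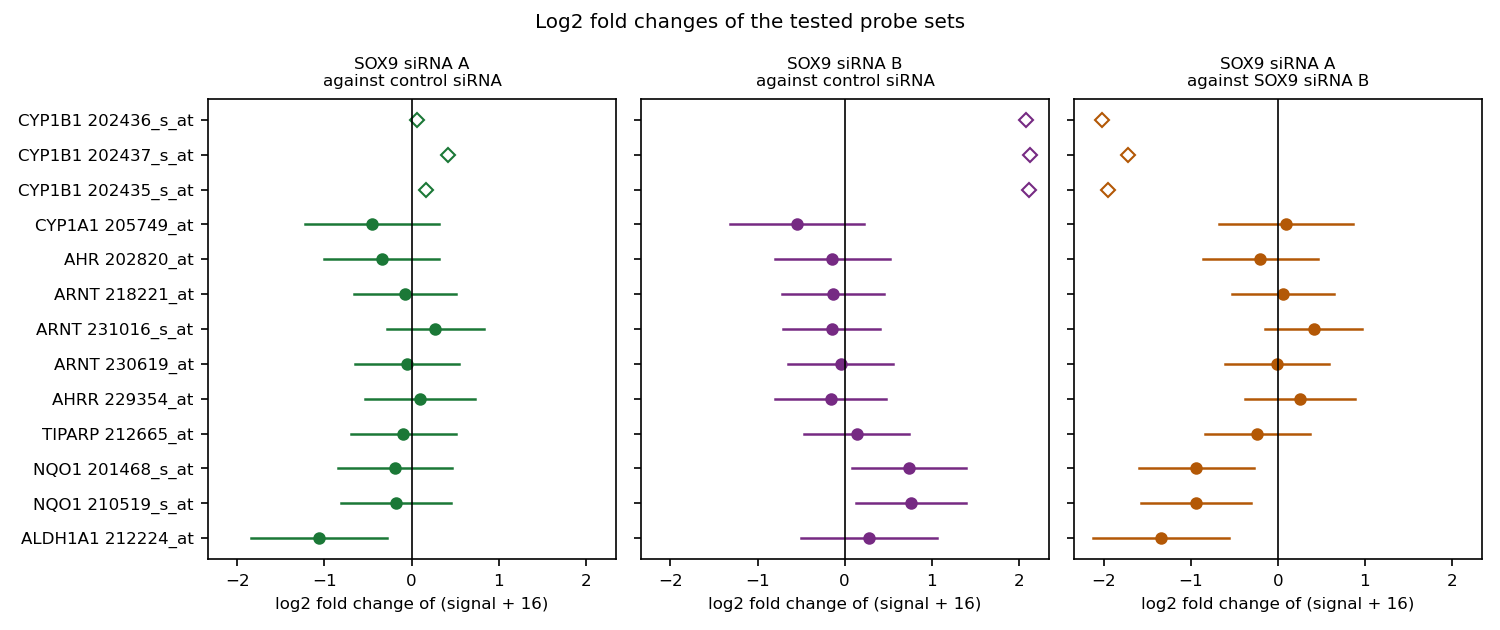
Log2 fold change of each tested probe set for siRNA A against siRNA B, siRNA A against control and siRNA B against control, as points, with limma's 95% intervals drawn for the 7 genes other than CYP1B1. CYP1B1 has points alone. CYP1B1, NQO1 and ALDH1A1 lie below 0 for siRNA A against siRNA B, and CYP1B1 lies above 2 for siRNA B against control.

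The wider pathway was read from 7 gene lists, each gene by its brightest probe set, and in none of the lists did limma call a gene in any of the 4 comparisons at an adjusted p below 0.05. CYP1B1 was left out of the list counts in which a single siRNA was set against control or against the other siRNA. The receptor's complex and partners had 21 tested genes of 24 listed, of which 9 were above and 12 below 0 for siRNA A against siRNA B, with a median of -0.02 (log2) beside -0.03 over all tested probe sets, and 1 at an unadjusted p below 0.05 beside 7.48%. KLF6, a zinc finger factor that partners the receptor, gave 970 and 633 under siRNA A, 1386 and 1369 under siRNA B and 955 and 982 under control siRNA. Both siRNA B arrays of KLF6 were above all others. The circadian factor CLOCK gave 585 and 599 under siRNA A, 729 and 937 under siRNA B and 519.9 and 559 under control siRNA, and HSP90AB1, a chaperone of the unliganded receptor, gave 6555 and 6052, 5457 and 5604, and 6795 and 7189 in the same groups. CLOCK was highest with siRNA B and HSP90AB1 lowest with it. KLF6, CLOCK and HSP90AB1 were named for their small p. Of all tested probe sets, 13.5% had siRNA B wholly above control alone and 24.8% wholly below it.

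Of 25 listed target genes of the receptor, 17 were tested and 16 counted beside CYP1B1. For siRNA A against siRNA B, 6 were above and 10 below 0, with a median of -0.11 (log2) beside -0.03 over all tested probe sets. At an unadjusted p below 0.05 there were 4 of the 16, where 7.48% of all tested probe sets passed. The efflux pump gene ABCG2 gave 26 and 27 under siRNA A, 38.5 and 88.1 under siRNA B and 29.6 and 31.6 under control siRNA, and the Notch target HES1 gave 505 and 344, 759 and 659.8, and 829 and 618. ABCG2 had both siRNA B arrays above all others, like CYP1B1, while HES1 had both siRNA A arrays below all others, like ALDH1A1. Both genes were named for their small p. Of all tested probe sets, 13.5% had siRNA B wholly above control and 22.5% had siRNA A wholly below it. These shares are against control alone, a looser condition than standing apart from all 4 other arrays. The first siRNA B array of ABCG2 was 1.22 times the higher control array, against 2.57 for CYP1B1 on 202436_s_at. Among P450 enzymes of families 1 to 3 and their partners, 11 were counted beside CYP1B1, with 4 above and 7 below 0 and none at an unadjusted p below 0.05 for siRNA A against siRNA B. CYP2J2, an arachidonic acid epoxygenase, gave 253 and 226 under siRNA A, 285 and 501 under siRNA B and 265 and 263 under control siRNA.

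NRF2 target genes, the other group to which NQO1 belongs, had 22 tested of 28 listed, with 8 above and 14 below 0 for siRNA A against siRNA B, a median of -0.14 (log2) beside -0.03 over all tested probe sets, and 3 of the 22 at an unadjusted p below 0.05 beside 7.48%. MGST1, a membrane glutathione transferase, gave 1959.7 and 2700.1 under siRNA A, 3108 and 5530.1 under siRNA B and 2457 and 2588 under control siRNA. BLVRB, a biliverdin reductase, gave 225 and 110.2 under siRNA A, 324 and 352 under siRNA B and 255 and 206 under control siRNA. Both had siRNA B above all other arrays. The siRNA A minus siRNA B difference was -0.85 for MGST1 and -1.02 for BLVRB (log2), each with an adjusted p of 0.382 in limma, and both passed with the replicate block (0.0109 and 0.0150 in limma). MGST1 also passed with the block for siRNA B against control, at 0.71 (adjusted p = 0.0296 in limma, and 0.365 without the block). MGST1 and BLVRB were named for their small p. Of all tested probe sets, the block called 2.60% for siRNA A against siRNA B and 5.60% for siRNA B against control. On 13.5% of them siRNA B lay wholly above control alone.

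Retinoid genes and aldehyde dehydrogenases, the groups of ALDH1A1, had 16 and 15 tested genes of 26 and 19 listed. For siRNA A against siRNA B, 5 retinoid genes were above and 11 below 0, and 4 aldehyde dehydrogenases were above and 11 below 0, with medians of -0.14 and -0.20 (log2) beside -0.03 over all tested probe sets. ALDH4A1, a mitochondrial enzyme of proline breakdown, gave 49.1 and 53.4 under siRNA A, 94.0 and 194 under siRNA B and 75.5 and 89.1 under control siRNA. Its siRNA A minus siRNA B difference of -1.18 had an adjusted p of 0.266 in limma and of 0.00152 with the replicate block. RDH11, a retinal reductase, gave 4310.2 and 5633 under siRNA A, 6239.8 and 8453 under siRNA B and 3596 and 4312 under control siRNA, so that siRNA B was above all other arrays. Its siRNA B minus control difference of 0.88 had an adjusted p of 0.166 in limma and of 0.000475 with the block, and for both siRNAs against control 0.60 had 0.587 and 0.0170. PLAAT4, a retinoid-inducible phospholipase, gave 278 and 205 under siRNA A, 443 and 483 under siRNA B and 374 and 359.5 under control siRNA, with siRNA A below and siRNA B above control in every array. Its siRNA A minus siRNA B difference of -0.91 had an adjusted p of 0.356 in limma and of 0.0458 with the block. CRABP2, which carries retinoic acid to its receptors, was -0.91 (log2) for both siRNAs against control, with an adjusted p of 0.722 in limma and 0.00558 with the block, which also called it for each siRNA against control (0.0352 and 0.0238). Without the block the SE of CRABP2 was 0.43 for both siRNAs against control and 0.49 for each siRNA against control. Its single-siRNA differences then had unadjusted p of 0.0749 for siRNA A and 0.0933 for siRNA B in limma. ALDH4A1, RDH11 and PLAAT4 were named for their small p, and CRABP2 was named after its values were seen. Of all tested probe sets, the block called 2.60% for siRNA A against siRNA B and 5.60% for siRNA B against control. It called 1.30% for siRNA A against control and 3.01% for both siRNAs against control. Arrays of siRNA B lay wholly above control on 13.5%, and 1.63% had siRNA A below and siRNA B above control in every array.

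The mono-ADP-ribosyltransferases, the family of TIPARP, had 11 tested genes of 13 listed, with 4 above and 7 below 0 for siRNA A against siRNA B, a median of -0.10 (log2) beside -0.03 over all tested probe sets, and none at an unadjusted p below 0.05. PARP10 gave 40.3 and 14.4 under siRNA A, 56.9 and 16.7 under siRNA B and 82.7 and 68.2 under control siRNA. All 4 siRNA arrays of PARP10 were below both control arrays, and the second array of each siRNA was the lower, as for CYP1A1. Its difference for both siRNAs against control was -1.02 (log2), with an adjusted p of 0.616 in limma and 0.00336 with the block, which also called it for each siRNA against control (0.0104 for siRNA A and 0.0356 for siRNA B). PARP10 was named for its small p. Of all tested probe sets, 15.6% had all 4 siRNA arrays on one side of both control arrays. The block called 3.01% of them for both siRNAs against control, 1.30% for siRNA A and 5.60% for siRNA B.

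For both siRNAs against control, the counts above and below 0 were 7 and 14 in the receptor's complex, 10 and 7 among its targets, 10 and 12 among NRF2 targets, 8 and 8 among retinoid genes, 5 and 7 among P450 genes, 8 and 7 among aldehyde dehydrogenases and 6 and 5 among mono-ADP-ribosyltransferases, with CYP1B1 counted above 0 among the targets and the P450 genes. The medians ran from -0.06 to 0.06 (log2), beside -0.03 over all tested probe sets. The aldehyde dehydrogenases had 6 above and 9 below 0 for siRNA A against control, with a median of -0.20 beside -0.04 over all tested probe sets. For siRNA B against control they had 11 above and 4 below 0, with a median of 0.23 beside -0.01. At an unadjusted p below 0.05 there were 1 and 0 of the 15, beside 3.86% and 10.3% of all tested probe sets. This list had the widest such medians of the 7 lists. GSTM3, a glutathione transferase among the NRF2 targets, gave 1170.5 and 983 under siRNA A, 1094 and 879 under siRNA B and 1650.3 and 1356 under control siRNA. RARA, a retinoic acid receptor, gave 51.8 and 35.8 under siRNA A, 44.4 and 23.7 under siRNA B and 64.4 and 70.3 under control siRNA. Both genes were lower in all 4 siRNA arrays than in both control arrays and neither was called in limma. GSTM3 and RARA were named for their small p, and 15.6% of all tested probe sets had all 4 siRNA arrays on one side of control.

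The genes whose values ran most like those of CYP1B1 over the 6 arrays were found among 12430 other tested genes by the root-mean-square difference of log2 deviations from each gene's own mean. They were UGT2B15 at 0.270, UGT2B17 at 0.332, UGT2B4 at 0.350, PGM2L1 at 0.365 and IGFBP5 at 0.387. The first 3 belong to the UGT2B family of glucuronosyltransferases, which conjugate steroids including androgens. PGM2L1 makes glucose 1,6-bisphosphate and IGFBP5 binds insulin-like growth factors. They were picked for their likeness, so their values are a description. The 6 arrays share groups and replicate numbers, which also bears on the likeness.

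UGT2B15 gave 442 and 464 under siRNA A, 1289 and 1968 under siRNA B and 329 and 481 under control siRNA. UGT2B17 gave 48.6 and 71.9 under siRNA A, 149 and 343 under siRNA B and 29.3 and 38.8 under control siRNA. Both of these had both siRNA B arrays above every other array.

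UGT2B4 gave 48.4 and 47.1 under siRNA A, 115 and 199 under siRNA B and 23.5 and 27.0 under control siRNA. PGM2L1 gave 99.5 and 96.6 under siRNA A, 181 and 409 under siRNA B and 99.8 and 93.9 under control siRNA. IGFBP5 gave 60.6 and 60.7 under siRNA A, 259 and 351 under siRNA B and 81.4 and 108 under control siRNA. All 3 had both siRNA B arrays above every other array as well. The siRNA A arrays overlapped control for UGT2B15 and PGM2L1, were above it for UGT2B17 and UGT2B4 and below it for IGFBP5. The UGT2B transcripts are closely related and the UGT2B15 probe set is of a type that can bind several of them, so the family members may share signal.

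**Figure D4:**
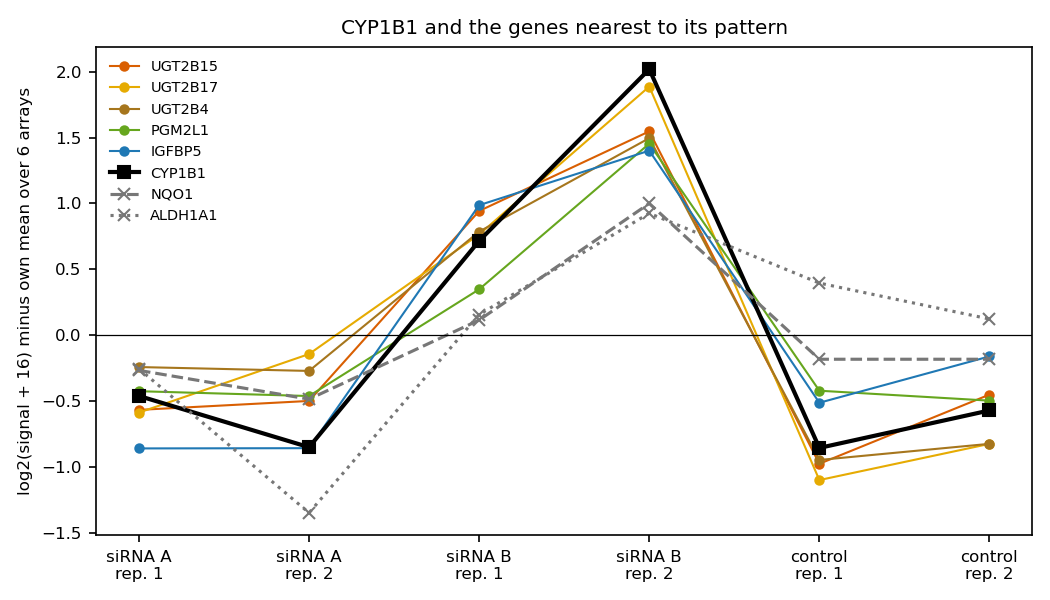
Log2 deviation of CYP1B1 and of the 5 genes nearest to it in pattern from each gene's own mean, in each of the 6 arrays. NQO1 (dashed grey) and ALDH1A1 (dotted grey) are drawn as well and are not among the 5 nearest genes. Lines join the values of a gene to guide the eye. CYP1B1 and the 5 nearest genes are all highest in the siRNA B arrays, with replicate 2 above replicate 1.

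Among the other 7 genes NQO1 came closest to CYP1B1, at 0.602 and place 74 of the 12430 on probe set 201468_s_at. ALDH1A1 followed at 0.801 and place 779, TIPARP at 0.917 and place 2798, and AHR at 0.995 and place 5042. ARNT, AHRR and CYP1A1 were at 1.05, 1.12 and 1.30, with CYP1A1 at place 11393. The receptor, its partner, its repressors and CYP1A1 all came behind NQO1 and ALDH1A1 in this ordering. The distance is taken from the CYP1B1 values on which that gene was selected, and it also depends on the size of a change. A gene that changed little lies far from CYP1B1 whatever its direction, so the places are a description.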

How the data were processed

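Total RNA of VCaP cells was labelled as biotin cRNA from 6 ug per sample, per the labels' protocols, and 6 arrays in 3 groups of 2 were used. The authors deposited intensity values as linear signals, 1 for each probe set, made with MAS5 per the submitters' processing notes. For MAS5, neither version nor scaling target is given in the sources used here. The 62 control probe sets were left out, log2(signal + 16) was taken, and 27307 probe sets with a mean at or above the median of all (5.25 on the log2 scale) were tested. GEO's platform annotation gave 1 symbol for 41097 probe sets, several for 1801 and none for 11777. Only probe sets with 1 symbol were named, and no symbol needed updating.

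Tests used limma 3.58.1 in R 4.3.3 (lmFit on 3 groups, eBayes with an intensity trend, 3 residual degrees of freedom), with Benjamini-Hochberg adjustment over all tested probe sets and a threshold of 0.05. The scripts were tested on simulated data. A gene with several probe sets was represented by the one with the highest mean. The genes, lists and tests were chosen with earlier results of these data known. Named genes were all 8 genes with every probe set, SOX9, up to 4 genes of each list with the smallest unadjusted p in any comparison, and the 5 genes nearest to CYP1B1 in pattern. Those not described with values were ranked the same way and did not pass the test.

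Same-numbered arrays deviated together from their group means (correlation 0.59 between siRNA A and siRNA B, 0.147 between siRNA A and control, 0.145 between siRNA B and control), and the labels give no other basis for pairing. The main tests leave the replicate number out, and a fit with it as a block is given beside them where it changes a call. The blocked calls were known when this was decided. A limma test of CYP1B1 for both siRNAs against control was planned, but that difference holds the values CYP1B1 was selected on, so no p-value is given for it. Precision is limited by the number of arrays. Alternatives covered the normalization, the offset, the filter, the intensity trend, the groups fitted, the replicate block and each array left out.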

Additional observations from a re-analysis of the deposited data

Results flagged for a closer look

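NQO1 on probe set 201468_s_at lay on opposite sides of control with the 2 siRNAs. Both siRNA A arrays (86.6 and 72.2) were below, and both siRNA B arrays (118 and 231) above, the control arrays (92.8 each). The siRNA A minus control difference was only -0.19 (log2, unadjusted p = 0.538 in limma). With all arrays scaled to a common trimmed mean, the first siRNA A array gave 86.7 and the lower control array 87.4. The siRNA A minus siRNA B difference was -0.93 on the log2 scale and did not pass limma's test (adjusted p = 0.390). On probe set 210519_s_at the siRNA A arrays overlapped the control arrays. Groups of 2 arrays are too small to look for a single outlying array by its distance from the others.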

How the results depend on the processing

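The count of called probe sets of the 7 genes other than CYP1B1, 0 of 10 in each comparison in limma, changed mainly when replicate 1 was left out or the replicate was made a block. For siRNA A against siRNA B it was 3 with the replicate block, 1 with the block and median centring, and 0 to 3 with an array or a pair of arrays left out (2 without the first siRNA B array, 3 without the first array of both siRNAs). For siRNA A against control it was 1 with the block, 0 with the block and median centring, and 0 to 2 with arrays left out. For siRNA B against control it was 0 to 4, and for both siRNAs against control 0 to 1. Fits without a replicate of both siRNAs have 1 residual degree of freedom, from the control arrays. CYP1B1 for both siRNAs against control, a description at 1.07 (log2), was 1.07 with the block, 1.11 with the block and median centring, and 0.74 to 1.39 with arrays left out. Over 3428 alternatives for single probe sets, 3217 kept side and direction or were uncalled in both, and 126 of these had the opposite sign with no call on either side. A further 156 became called, 31 lost a call and 24 values with no test moved. The lost calls were all of genes picked for likeness to CYP1B1, since nothing else counted here was called in the main fit. The newly called values include CYP1B1 for both siRNAs against control. CYP1B1 and the genes picked for likeness to it are given as a description, so their calls are not test results. Over all tested probe sets, the calls for siRNA A against siRNA B were 13, and 709 with the block (0 to 1982 over the settings). For both siRNAs against control they were 1, and 821 with the block (0 to 4914). The array-wise trimmed mean differed by 1.32 times, and 6 arrays limit every comparison.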
